A study of Arabidopsis thaliana with 22 samples.

Results

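Wild-type Arabidopsis thaliana seedlings of the Col-0 accession were compared at 1 h and at 0 h by RNA sequencing, with 3 libraries at each time. These are 6 of the 22 libraries of the study, and they were chosen by their genotype and time labels, not by any measured value. The study is titled as one of plant defence and a pair of trihelix transcription factors. The labels give the seedlings an age of 10 days, whereas the growth protocol gives an older age and half-strength Murashige and Skoog plates with sucrose. The agent or handling that separates 1 h from 0 h is not named in the labels, and untreated seedlings at 1 h were not analysed here. What was applied, the handling itself and the passing of an hour therefore cannot be told apart. At each of these times, 3 libraries of aitf1-1 asr3-1 double mutant seedlings served as independent libraries for the same times, and wild-type libraries at 3 h are quoted for their levels. The labels do not say that replicates came from separate cultures, and p-values thus rest on a spread among libraries that may be only technical.

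Plants carry receptors at the cell surface that recognise fragments of microbes and of damaged cells. On recognition, receptor kinases and their co-receptors act through cytoplasmic kinases, an oxidase that makes reactive oxygen, calcium channels and cascades of mitogen-activated protein kinases (MAP kinases). Transcription factors of the WRKY family, which bind the W-box in promoters, are among the earliest genes that such signalling is known to switch on, and defence compounds such as camalexin and indole glucosinolates are made from tryptophan in its course. Growth and photosynthesis genes are known to be lowered during strong immune signalling. These points are background and not results of the comparison.

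Of 33318 gene identifiers in the seedling count table, 21028 passed the filter on low counts and were tested. Levels are given as CPM, each count as its share of the library on the usual fixed scale, after library scaling by the trimmed mean of M values (TMM). Changes are log2 fold changes, 1 h over 0 h, with the standard error (SE) of the fit, and values after "rose by" or "fell by" or in brackets after a gene are on this scale unless a fold is named. A gene was called at a Benjamini-Hochberg adjusted p under 0.05 in edgeR's quasi-likelihood test. The 6 libraries held similar totals of counts (18103765 to 21550562 per library), and a single count was worth 0.0464 to 0.0552 CPM before TMM scaling. Counts of replicate pairs were farther apart than counting error alone gives (chi-square over its degrees of freedom 9.11 to 22.1), so no library was a copy of another. The first replicate at 0 h lay farthest out on the first principal component, at -83.2 against -62.2 and -55.1 for the other two, and it held less of the root markers and more of the leaf genes, as given below. The extraction text speaks of leaves, but defining root genes were present: CASP1, a protein of the endodermal barrier, read 12.1, 31.9 and 22.5 CPM at 0 h and 33.7, 32.6 and 33 CPM at 1 h. RBCS1A, a small subunit of Rubisco, read 4301, 3276 and 3772 CPM at 0 h, so markers of both shoot and root were present. In whole seedlings, fewer cells of a type and less RNA per cell cannot be told apart.

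About as many genes rose as fell, but the large changes were nearly all upward. In the test, 10142 genes (48.2% of those tested) were called, 5308 (25.2%) higher and 4834 (23.0%) lower at 1 h. At least 2-fold higher were 1875 genes (8.92%) and at least 2-fold lower were 700 (3.33%). At least 8-fold higher were 303 genes, against 6 that were at least 8-fold lower. The 1875 genes took 3.06 to 4.25% of all counts in the 0 h libraries and 13.2 to 17.1% in the 1 h libraries, whereas the 700 genes took 11.2 to 13.1% at 0 h and 4.24 to 5.54% at 1 h. The median log2 change over all genes tested was 0.05. Counts of called genes in the lists below stand beside these shares over all genes, 25.2% higher and 23.0% lower. For 9650 of the 10142 called genes (95.1%), the 3 libraries at 1 h lay entirely above or entirely below the 3 at 0 h. The same held for 11697 (55.6%) of all genes tested, so groups without overlap are common here.

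**Figure D1:**
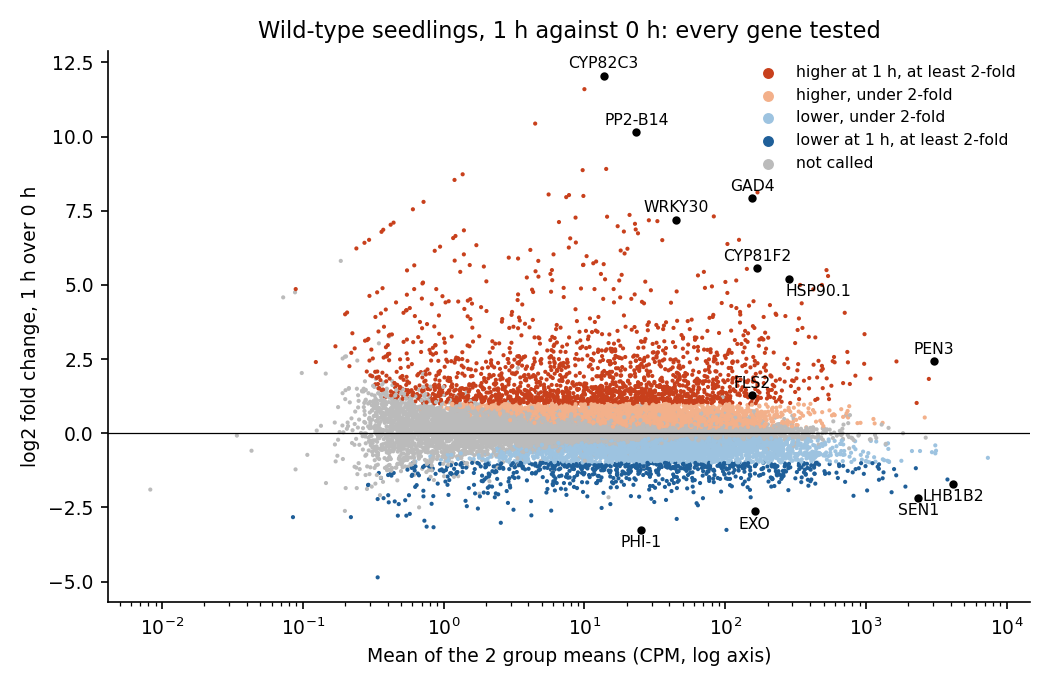
Each point is 1 of the 21028 genes tested; the horizontal axis is the mean of the 2 group means in CPM (log axis) and the vertical axis the log2 fold change, 1 h over 0 h. Coloured points were called at an adjusted p under 0.05, dark ones at a change of at least 2-fold; 303 genes lie at least 8-fold up and 6 at least 8-fold down.

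The genes with the highest changes were nearly silent at 0 h. CYP82C3, a cytochrome P450 of the subfamily that oxidises camalexin-related indoles and coumarins, had 0 counts in all 3 libraries at 0 h and 24.4, 16 and 41.8 CPM at 1 h. Against the limit that 3 counts over the 0 h group allow, this is at least 521-fold higher, a bound that covers counting error only. PP2-B13, an F-box protein of the phloem protein 2 class, likewise had 0 counts at 0 h and read 10.4, 5.61 and 10.8 CPM at 1 h, at least 170.0-fold higher. Its neighbour in sequence, PP2-B14, had 2 counts over the 0 h group and 2805 over the 1 h group, a ratio of 1312 with a 95% exact counting interval of 363 to 10839. Reads of such close relatives may be split between them, since the treatment of reads with several matches is not given in the sources used here.

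GAD4, a glutamate decarboxylase that makes GABA, read 0.687, 1.09 and 1.97 CPM at 0 h and 276, 183 and 467 CPM at 1 h (log2 change 7.93, SE 0.56, edgeR adjusted p = 7.77e-08). WRKY30, a group III WRKY factor, read 0.629, 0.297 and 0.883 CPM at 0 h and 88.2, 75.5 and 102 CPM at 1 h (7.20, SE 0.43, edgeR adjusted p = 3.45e-08). PROPEP3, the precursor of the danger peptide Pep3, read 0.172, 0.198 and 0.156 CPM at 0 h and 25.8, 14.8 and 45.9 CPM at 1 h (7.30, SE 0.65, edgeR adjusted p = 4.05e-07). In all these genes the lowest 1 h library stood far above the highest 0 h library. The same held for CRK39, a cysteine-rich receptor-like kinase with 3 counts over the 0 h group and 1727 over the 1 h group, a ratio of 539 with a 95% exact counting interval of 184 to 2614. GLR2.9, a glutamate receptor-like cation channel, had 2 and 651 counts, a ratio of 305 (interval 84 to 2519.7), and the beta-glucosidase BGLU27 had 3 and 877 counts, a ratio of 273 (interval 93.3 to 1329). Among the other highest genes, each from below 1 CPM at 0 h in every library, were GSTU12, a tau-class glutathione transferase (log2 change 7.36), the kinase CRK20 (7.18), the heat shock factor HSFA2 (7.06), CYP71A12 of the camalexin pathway (6.98), the plastid glucose-6-phosphate translocator GPT2 (6.80) and the small heat shock protein HSP17.6A (6.74).

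The levels of many of these genes were lower in the wild-type libraries at 3 h than at 1 h, a difference not tested here. GAD4 read 12.2, 25.1 and 27.5 CPM at 3 h, CYP82C3 read 1.18, 2.22 and 1.83 CPM, and HSFA2 read 4.65, 4.89 and 3.08 CPM. CYP71A12 went the other way, from 20.4, 25 and 57.3 CPM at 1 h to 77.6, 96.9 and 115 CPM at 3 h. Here and below, the 3 h levels are given as levels and were not tested against 0 h or 1 h. Changes from 0 h at both times would share the 0 h libraries.

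**Figure D2:**
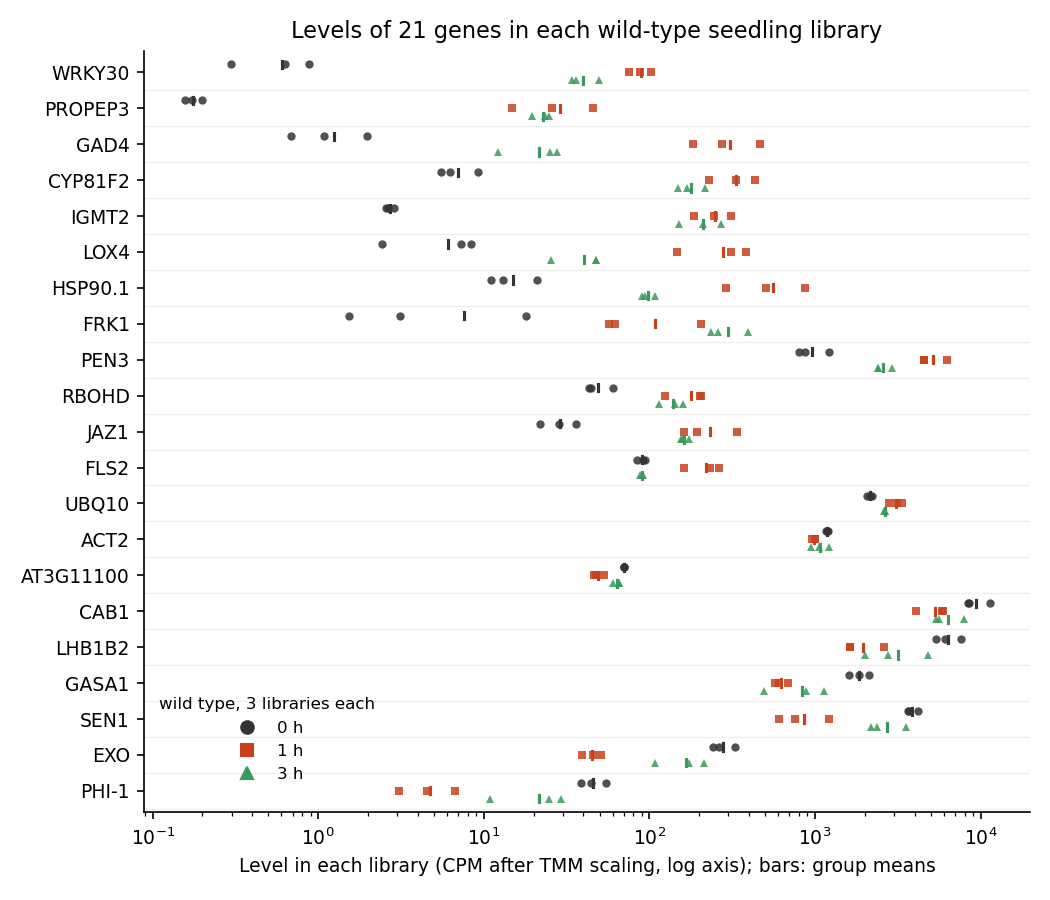
Levels of 21 genes in each wild-type library at 0, 1 and 3 h, in CPM after TMM scaling on a log axis; each symbol is 1 library and each bar a group mean. From WRKY30 down to FLS2 all 1 h libraries lie above all 0 h libraries, and from AT3G11100 down to PHI-1 all lie below.

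The start regions of 3 of these genes are shown because their promoters hold the motif that set the rising genes apart most in percentage points, the W-box with the letters TTGACT. They are the 250 bases before the annotated start, read from the TAIR10.1 reference sequence (RefSeq) and written 5′ to 3′ on the strand of the gene, with each W-box on either strand in capitals (AGTCAA is the same box on the other strand). CRK39 starts downstream of chr4:2259248-2259497 on the plus strand, GLR2.9 of chr2:12504945-12505194 on the minus strand and GAD4 of chr2:476998-477247 on the minus strand.
CRK39: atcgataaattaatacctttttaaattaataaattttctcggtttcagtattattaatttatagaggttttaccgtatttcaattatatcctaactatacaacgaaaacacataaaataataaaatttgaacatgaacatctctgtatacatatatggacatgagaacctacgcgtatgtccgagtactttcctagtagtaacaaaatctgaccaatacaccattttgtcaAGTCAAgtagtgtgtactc
GLR2.9: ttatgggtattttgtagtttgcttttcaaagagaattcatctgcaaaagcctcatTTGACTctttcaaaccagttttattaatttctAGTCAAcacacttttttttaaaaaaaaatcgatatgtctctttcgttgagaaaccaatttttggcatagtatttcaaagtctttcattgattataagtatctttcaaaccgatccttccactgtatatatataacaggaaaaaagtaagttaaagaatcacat
GAD4: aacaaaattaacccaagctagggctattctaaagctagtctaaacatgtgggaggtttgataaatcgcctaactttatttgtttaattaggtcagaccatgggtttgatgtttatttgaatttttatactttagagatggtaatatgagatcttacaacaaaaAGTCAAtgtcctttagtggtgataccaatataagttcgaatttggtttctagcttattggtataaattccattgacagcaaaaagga
The box begins 19 bases before the start of CRK39 and 87 before that of GAD4, and the pair in GLR2.9 lies 195 and 163 bases before it. Of the 15 highest genes, 7 hold TTGACT in this window and 11 hold either form of the W-box.

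W-boxes were more frequent before genes that rose. TTGACT stood in the window of 35.0% of the 1875 genes at least 2-fold higher, of 15.9% of the 700 at least 2-fold lower and of 19.1% of all 21007 genes tested that have an annotated start. The other form, TTGACC, stood in 20.9%, 9.71% and 12.4%. The share with either form was 26.4% in genes not called, 32.1% in genes higher by less than 2-fold, 43.8% from 2 to 4-fold, 55.9% from 4 to 8-fold, 54.5% from 8 to 32-fold and 62.8% in the 94 genes at least 32-fold higher. The median GC content of these windows ran from 30.4 to 32.4% over the same classes. By ratio rather than percentage points, the CGCG box ACGCGT stood out more, in 3.57% against 1.78% of all genes, a ratio of 2.01, and the CAMTA element CGCGTT stood in 4.80% against 2.80%. The site II element TGGGCC, known from ribosomal protein and cell division genes, was scarcer before genes at least 2-fold higher (8.37%) and before those at least 2-fold lower (10.7%) than before all (16.0%). The G-box CACGTG stood before 9.29% of the lower, 5.81% of the higher and 7.11% of all genes. The choice of percentage points, the joining of the 2 forms and the classes of fold were made after these shares had been seen. A match to letters is a description of the window and not a site of binding.

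**Figure D3:**
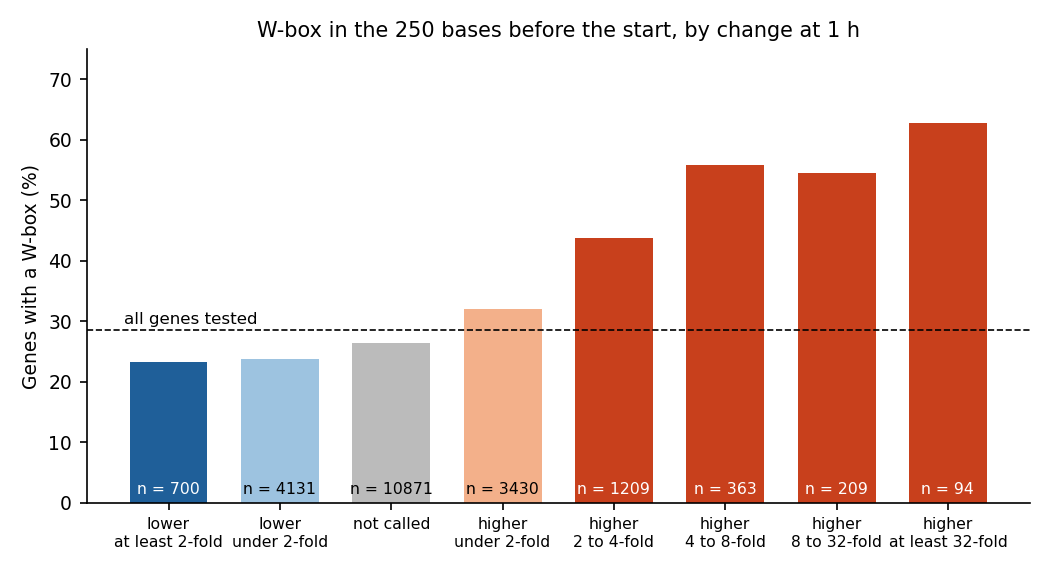
Share of genes with TTGACT or TTGACC on either strand in the 250 bases before the start (vertical axis, %), by class of change at 1 h; n is the number of genes and the dashed line all genes tested (28.6%). The share is 23.3% in genes at least 2-fold lower and 62.8% in genes at least 32-fold higher.

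Genes that changed at least 2-fold in either direction were shorter, more often without introns and more often side by side than all genes tested. Among protein-coding genes, a single exon was annotated for 25.8% of the genes at least 2-fold higher and for 21.4% of those at least 2-fold lower, against 16.0% of all tested, and median gene lengths were 2101, 1973 and 2387 bases. Of the 1875 genes, 576 (30.7%) lay directly beside another of them, whereas 16.7% of all genes tested lay beside one. Of the 700 lower genes, 119 (17.0%) lay beside another, against 6.51% of all genes tested. The longest run of higher genes held 5 genes on chromosome 1 (TAIR10.1, 19206615 to 19241965): AT1G51790, IOS1, AT1G51805, AT1G51810 and AT1G51820. IOS1 is a receptor kinase with leucine-rich repeats that associates with pattern receptors. Since neighbours can be duplicates of each other, their reads may be shared.

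Receptors and co-receptors rose broadly. Of 26 pattern receptors and co-receptors tested, 20 were called higher and 2 lower, with a median log2 change of 1.37. FLS2, the receptor of bacterial flagellin, read 93.9, 84.3 and 91.8 CPM at 0 h and 161, 263 and 233 CPM at 1 h (1.28, SE 0.16, edgeR adjusted p = 7.78e-06). BAK1, the co-receptor of FLS2 and other receptors, read 85, 103 and 105 CPM at 0 h and 234, 239 and 286 CPM at 1 h (1.37, SE 0.14, edgeR adjusted p = 1.05e-06). All 1 h libraries lay above all 0 h libraries for both. At 3 h, FLS2 read 87.3, 91.7 and 90.7 CPM, within its 0 h range. Higher changes in this list were seen for IOS1 (2.95, SE 0.36), SERK4, a relative of BAK1 (2.57, SE 0.22), and the wall-associated kinase WAK1 (2.23, SE 0.45). FER, the FERONIA receptor of RALF peptides, and LYM3, a LysM protein, fell by 0.30 and 0.35 on the log2 scale.

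Components close to the receptors were also higher. Of 26 kinases, oxidases and ubiquitin ligases in this list, 17 were higher and 2 lower (median 0.76). RBOHD, the oxidase of the immune oxidative burst, read 42.9, 44.2 and 60.1 CPM at 0 h and 202, 125 and 206 CPM at 1 h (1.86, SE 0.21, edgeR adjusted p = 3.81e-06). BIK1, the cytoplasmic kinase that activates RBOHD, read 33.4, 36.6 and 48.5 CPM at 0 h and 87.2, 81.3 and 107 CPM at 1 h (1.22, SE 0.17). Neither gene's groups overlapped. The U-box ubiquitin ligases PUB22, PUB23 and PUB24, which dampen immune responses, rose 6.09-fold, 9.86-fold and 5.85-fold. BSK1, a kinase of brassinosteroid signalling that also binds FLS2, fell by 0.67, and SIK1 fell by 0.39.

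Of 25 genes of MAP kinase cascades and their phosphatases, 17 were higher and 1 lower, with a median of 0.47. MPK11 read 0.629, 0.0494 and 0.311 CPM at 0 h and between 13.1 and 29.9 CPM at 1 h (mean 20.4 ± 8.63, SD, n = 3; log2 change 5.97, SE 0.42, edgeR adjusted p = 7.77e-08). MKK4, a kinase above MPK3 and MPK6, rose by 2.31 and the phosphatase gene PP2C5 by 4.76. MPK6 itself was not called (0.07, edgeR adjusted p = 0.378). MPK3 was called at the edge of the threshold (0.39, SE 0.15, edgeR adjusted p = 0.0475), and the call was lost with DESeq2 (adjusted p = 0.0615), with the size factors of DESeq2 in edgeR (0.0671) and without the first replicate at 0 h (0.174) or at 1 h (0.263), among other settings.

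Of 27 calcium channels, pumps and sensors, 14 were higher (51.9%, against 25.2% of all genes) and 6 lower (22.2%, against 23.0%), with a median of 0.34. CNGC19, a cyclic nucleotide-gated channel, read 1.14, 0.642 and 1.82 CPM at 0 h and 13.6, 7.22 and 12.6 CPM at 1 h (3.21, SE 0.34), and GLR2.7 rose by 2.47. CAX1, the vacuolar calcium and proton exchanger, read 233, 183 and 199 CPM at 0 h and 61.7, 73.7 and 51.6 CPM at 1 h, a fall of 1.72 on the log2 scale (SE 0.17, edgeR adjusted p = 1.11e-06). CNGC4 fell by 1.68 and CAX3 by 0.72. In the list of 19 calmodulins and calmodulin-like proteins, 12 were higher and 3 lower (1 lower without the first 0 h replicate). Among them, CML37 (9.87-fold) and CML42 (7.05-fold) rose and CML41 fell (-1.46 on the log2 scale). Another of the 3 lower, CNGC1 (AT5G53130, -0.42), is a channel and not a calmodulin.

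Genes in general use as early markers of pattern recognition had the highest median of the 44 lists. Of 21 tested, 19 were higher and 1 lower, with a median of 3.55 against 0.05 over all genes. CYP81F2, which hydroxylates indole glucosinolates, read 5.55, 6.23 and 9.29 CPM at 0 h and 335, 228 and 432 CPM at 1 h (5.56, SE 0.34, edgeR adjusted p = 3.45e-08). FRK1, a receptor kinase, read 1.54, 3.11 and 18 CPM at 0 h and 62.4, 57 and 206 CPM at 1 h (3.83, SE 0.75, edgeR adjusted p = 5.62e-04), and 235, 259 and 396 CPM at 3 h. Replicate 3 was the highest for FRK1 at each of the 3 times. The only member that fell was PHI-1, a phosphate-induced protein of the EXORDIUM family, from 54.5, 38.5 and 44.1 CPM at 0 h to 6.66, 4.55 and 3.07 CPM at 1 h (-3.25, SE 0.49, edgeR adjusted p = 5.70e-05). Among 17 genes in the list of danger and growth peptides, 11 were higher and 1 lower. The 17 include CEP1 (AT5G50260), a cysteine endopeptidase matched by its symbol, which was not called. PROPEP2 rose by 4.77 beside PROPEP3, and RALF23, the precursor of a peptide bound by FER, fell from 253, 197 and 226 CPM to 53.3, 76.1 and 61.4 CPM (-1.82, SE 0.23).

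Cysteine-rich receptor-like kinases, a family of duplicated extracellular-domain kinases, were among the lists with the widest spread. Of 39 tested, 27 were higher, 24 of them at least 2-fold, and 5 were lower (3 without replicate 3 at 0 h or replicate 1 at 1 h), with a median of 1.59. CRK31 rose by 5.46 and CRK20 from 0.114, 0.148 and 0.883 CPM to 47.7, 37.1 and 86.3 CPM (7.18, SE 0.60, edgeR adjusted p = 2.47e-07). CRK22 went down, from 33.9, 26.7 and 36.4 CPM to 7.47, 15.2 and 20.7 CPM (-1.16, SE 0.27), with no overlap of the groups. The family is large and its members are alike, so part of their counts may belong to relatives.

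Transcription factors of the WRKY family rose in number: 37 of 59 tested were higher, 23 at least 2-fold, and 5 lower, with a median of 0.88. WRKY33, which regulates camalexin genes, read 50.7, 52 and 60.1 CPM at 0 h and 267, 175 and 242 CPM at 1 h (2.07, SE 0.21, edgeR adjusted p = 1.20e-06). WRKY40 read 10.5, 8.15 and 8.31 CPM at 0 h and 73.2, 88.1 and 106 CPM at 1 h (3.31, SE 0.28, edgeR adjusted p = 2.54e-07). WRKY53 rose by 3.74 and WRKY55 by 4.25, whereas WRKY4 and WRKY26 fell by 0.37 and 0.62. The groups did not overlap for any of these. Without the first 0 h replicate, 33 WRKY genes were higher and 2 lower.

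Of 32 ERF and DREB factors tested, 20 were higher and 3 lower, and 5 were lower without replicate 3 at 1 h. ERF11 read 0.973, 1.04 and 1.35 CPM at 0 h and 10.1, 11.8 and 10.2 CPM at 1 h (3.25, SE 0.26), and ORA59, a regulator of jasmonate and ethylene defence genes, rose by 2.48. EBP (RAP2.3), the member with the most counts, fell from 1161, 1064 and 1477 CPM to 509, 679 and 649.9 CPM (-1.01, SE 0.17). CBF2, a cold response factor, had 7, 2 and 4 counts at 0 h and 0, 0 and 1 count at 1 h and was not tested. Of 11 ZAT and related zinc finger factors, 9 were higher and 1 lower, ZAT11 by 4.41, ZF1 by 2.57 and RHL41 (ZAT12) by 2.16. Of 67 NAC factors, 26 were higher (38.8%, against 25.2% of all genes) and 4 lower (5.97%, against 23.0%). NAC042 rose by 3.69, while the senescence regulator NAC6 (ORE1) fell by 1.00.

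The pathway from tryptophan to camalexin and indole glucosinolates rose nearly as a whole. Of 34 genes tested, 31 were higher, 26 of them at least 2-fold, and 0 lower, with a median of 2.43. These counts and the sum below include PAT1 (AT5G48150), which rose by 1.08. It is a light signalling protein matched by its symbol and not a tryptophan enzyme. Beside CYP81F2, IGMT2, an indole glucosinolate methyltransferase, read 2.57, 2.87 and 2.65 CPM at 0 h and 246, 185 and 312 CPM at 1 h (6.52, SE 0.30, edgeR adjusted p = 2.82e-09). PEN3, the transporter that exports indole defence compounds and a gene with many counts, read 799, 870.0 and 1220.1 CPM at 0 h and 4570.1, 4569 and 6289 CPM at 1 h (2.42, SE 0.22, edgeR adjusted p = 4.06e-07). The summed level of the list was 3508 to 4805 CPM at 0 h and 16798 to 23394 CPM at 1 h. IGMT1 to IGMT4 lie close in sequence, so their counts may include reads of one another. Of 17 genes of the aliphatic glucosinolates, built from methionine, 2 were higher and 2 lower (median 0.23), counts that ran from 1 to 3 in each direction when single libraries were left out. SOT17, a sulfotransferase of the last step of the core pathway, read 4.46, 4.89 and 9.03 CPM at 0 h and 65.5, 65.2 and 124 CPM at 1 h (3.79, SE 0.36), and MAM1, the chain-elongating enzyme, fell by 0.90.

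Genes of callose synthesis and secretion and of the phenylpropanoid pathway were mostly higher as well. In the list of 22 genes of callose synthesis, secretion and MLO proteins, 17 were higher and 0 lower (median 0.90). The 22 include PEN1 (AT4G15340), a triterpene synthase matched by its symbol. MLO12 read 14.4, 28.6 and 41.8 CPM at 0 h and 225, 218 and 309 CPM at 1 h (3.14, SE 0.31), MLO6 rose by 2.49, and SYP121, the syntaxin of penetration resistance, rose 4.93-fold. Of 27 phenylpropanoid, lignin and flavonoid genes, 18 were higher and 5 lower (median 1.01). PAL2, at the entry of the pathway, read 63, 67.1 and 70.1 CPM at 0 h and 277, 225 and 432 CPM at 1 h (2.22, SE 0.20), and MYB15, an activator of lignin genes, rose by 3.87. The flavonoid enzyme TT5 fell by 0.97. ELI3-2, with 0 counts at 0 h and 0, 0.184 and 0.931 CPM at 1 h, was not called (edgeR adjusted p = 0.06).

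Of 24 tau-class glutathione transferases, 15 were higher and 2 lower, and 10 were higher without the first 0 h replicate. GSTU12 read 0.172, 0.0988 and 0.467 CPM at 0 h and 41.5, 30.7 and 52.7 CPM at 1 h (7.36, SE 0.44, edgeR adjusted p = 3.28e-08), and GSTU11 rose by 4.34. GSTU16 fell by 1.11. Of 33 heat shock and protein folding genes, 22 were higher and 2 lower (median 0.96). HSP90.1, a cytosolic chaperone that also serves immune receptors, read 11, 13.1 and 21 CPM at 0 h and 291, 505 and 871 CPM at 1 h (5.21, SE 0.48, edgeR adjusted p = 4.76e-07). HSFA2 read 0.0572, 0.297 and 0.623 CPM at 0 h and 23.1, 48.9 and 64.2 CPM at 1 h (7.06, SE 0.60, edgeR adjusted p = 2.54e-07). The first replicate was the lowest of both genes at both times, and no 0 h library reached a 1 h library. HSFA3, a heat shock factor of the drought response, fell by 1.41.

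**Figure D4:**
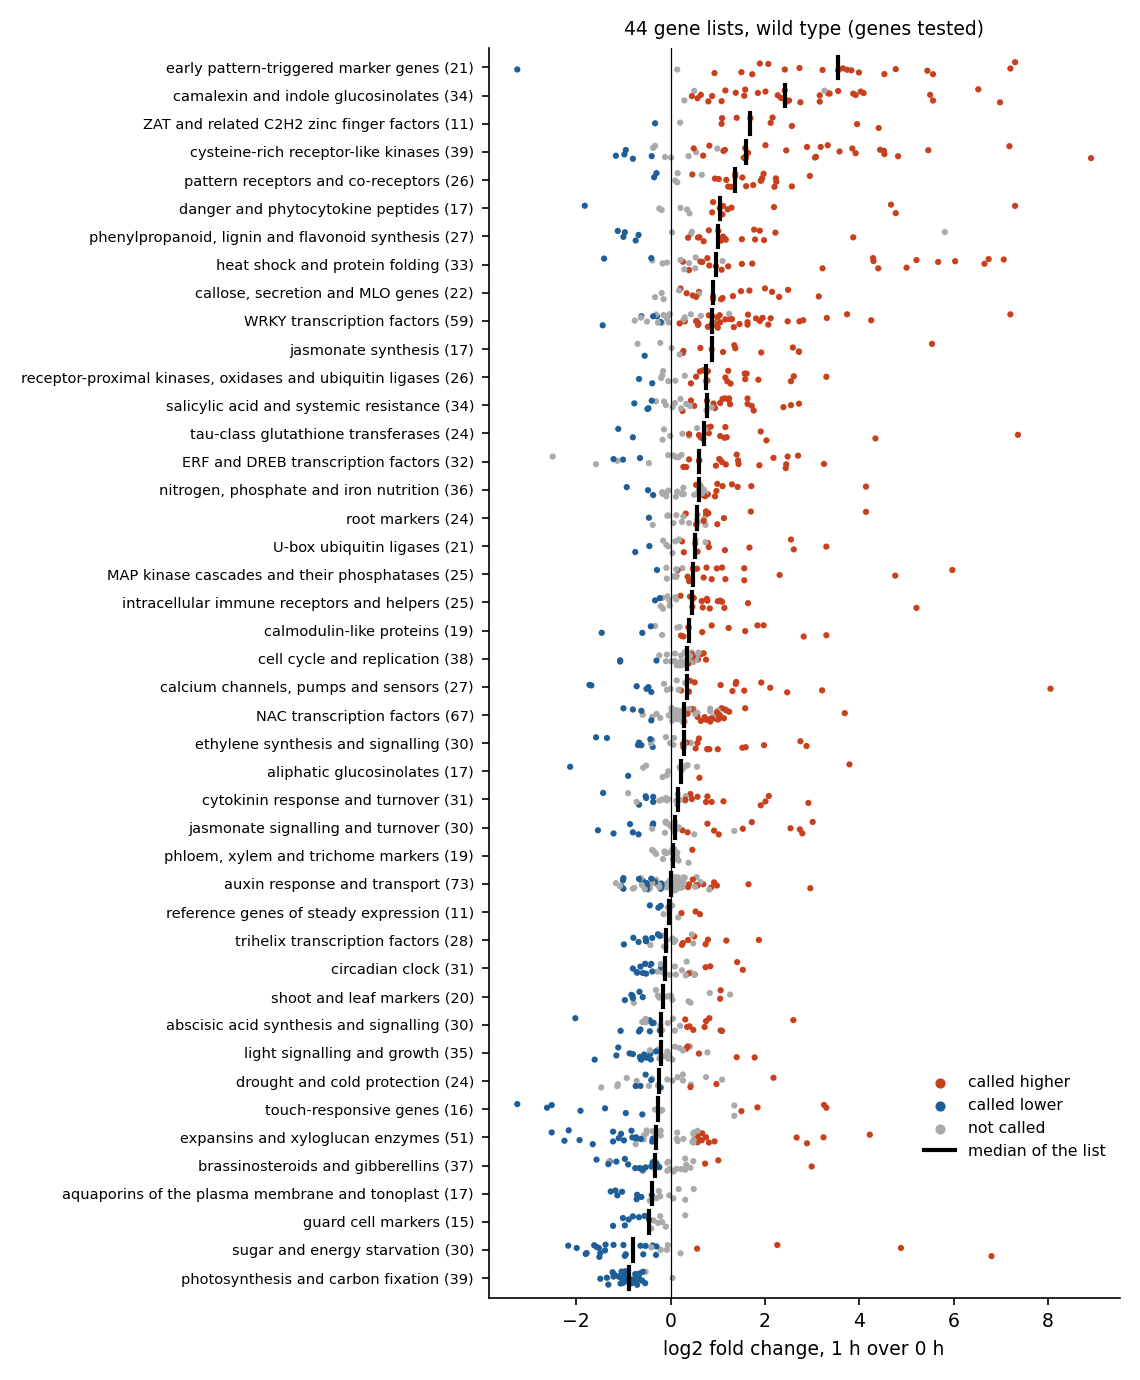
Log2 fold changes, 1 h over 0 h, of the tested members of 44 gene lists, ordered by their median (black bar); each point is 1 gene, coloured where called, and the number of genes tested stands in brackets. Medians run from 3.55 for the early marker genes to -0.89 for photosynthesis and carbon fixation.

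Hormone genes changed by branch. In the list of 17 jasmonate synthesis genes, 12 were higher and 1 lower (median 0.87). The lower one, KAT2 (AT4G18290, -0.55), was matched by its symbol. It is a potassium channel, also among the guard cell markers, and not a jasmonate enzyme. LOX4, a lipoxygenase, read 7.32, 2.42 and 8.41 CPM at 0 h and 309, 147 and 382 CPM at 1 h (5.54, SE 0.52, edgeR adjusted p = 6.07e-07), and AOC1 and OPR1 both rose by 2.72. Of 30 jasmonate signalling and turnover genes, 11 were higher (36.7%, against 25.2% of all genes) and 7 lower (23.3%, against 23.0%). Without replicate 1 or 3 at 0 h or replicate 1 at 1 h, 4 were lower. JAZ1, a repressor that jasmonate itself induces, read 28.6, 22 and 35.8 CPM at 0 h and 195, 162 and 338 CPM at 1 h (3.01, SE 0.31, edgeR adjusted p = 1.32e-06), JAZ5 rose by 2.74, and ORA47 fell by 1.21. JAZ7 fell by 1.54, a call lost without any of 4 single libraries, replicate 1 (edgeR adjusted p = 0.0608) or 3 (0.0841) at 0 h and replicate 1 (0.0653) or 2 (0.0601) at 1 h.

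Of 34 genes of salicylic acid and systemic resistance, 19 were higher and 4 lower (median 0.76). CBP60G, an activator of salicylic acid synthesis, read 19.2, 16.6 and 18.3 CPM at 0 h and 113, 59.3 and 110.5 CPM at 1 h (2.39, SE 0.28, edgeR adjusted p = 4.33e-06). EDS5, which exports the precursor from the plastid, rose by 2.55 and ACD6 by 2.72. Of 25 intracellular immune receptors and their helpers, 15 were higher and 2 lower. When single libraries were left out, 11 to 13 of them were higher and 1 to 2 lower. RPM1, a receptor of bacterial effector action, read 14.6, 12.2 and 16.1 CPM at 0 h and 33.7, 48.3 and 51.6 CPM at 1 h (1.64, SE 0.21, edgeR adjusted p = 1.09e-05).

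In the list of 30 ethylene genes, 15 were higher (50%, against 25.2% of all genes) and 7 lower (23.3%, against 23.0%). The higher genes include ACO3 (AT2G05710, 0.27), an aconitase matched by its symbol and not an enzyme of ethylene synthesis. ACS6, an ACC synthase whose protein MAP kinases stabilise, read 7.27, 7.26 and 7.84 CPM at 0 h and 16.4, 11.3 and 17.1 CPM at 1 h (1.00, SE 0.23, edgeR adjusted p = 0.00171). ACS7 rose by 2.88, and EIL1, a transcription factor of ethylene signalling, fell by 0.69. In the list of 30 abscisic acid genes, 10 were higher (33.3%, against 25.2% of all genes) and 10 lower (33.3%, against 23.0%). Their median was -0.20, and leaving out single libraries gave 8 to 10 calls in each direction. CYP707A3, which breaks down abscisic acid, rose from 8.64, 7.36 and 11.6 CPM to 47.7, 45 and 74.6 CPM (6.05-fold, SE of the log2 change 0.29), whereas its relative CYP707A2 fell by 2.02. Among the receptors, PYL4 and PYL6 rose by 1.06 and 1.09 and RCAR3 (PYL8) fell by 1.06. Of 24 drought and cold protection genes, 3 were higher (12.5%, against 25.2% of all genes) and 5 lower (20.8%, against 23.0%). Without the first 0 h replicate, 3 were lower. DREB2A was up by 2.18 and COR47 down by 0.53.

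Of 73 auxin genes, 11 were higher (15.1%, against 25.2% of all genes) and 16 lower (21.9%, against 23.0%), with a median of 0.01. WES1 and DFL1, which conjugate auxin to amino acids, fell by 1.04 and 1.00, and the importer LAX1 fell from 214, 183 and 186 CPM to 94.9, 111 and 83.9 CPM (-1.01, SE 0.15). Of 31 cytokinin genes, 12 were higher (38.7%) and 6 lower (19.4%). Without replicate 1 at 1 h, 5 cytokinin genes were higher. CKX4, a cytokinin oxidase, rose by 2.92. Of 37 brassinosteroid and gibberellin genes, 3 were higher and 18 lower (median -0.33). GASA1, a gibberellin-regulated peptide gene, read 2115, 1596 and 1840.3 CPM at 0 h and 608, 687 and 573 CPM at 1 h (-1.57, SE 0.24, edgeR adjusted p = 6.79e-05), while GA2OX6, which inactivates gibberellins, rose from 7.67, 10.8 and 18 CPM to 76.6, 71.3 and 143 CPM (2.99, SE 0.36).

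Photosynthesis genes fell together by moderate amounts. Of 39 genes tested, 0 were higher and 37 lower, 11 of them at least 2-fold, with a median of -0.89, against 23.0% of all genes called lower. The summed level was 23637 to 32640 CPM at 0 h and 11572 to 17910 CPM at 1 h. LHCB3, an antenna protein of photosystem II, read 418, 279 and 236 CPM at 0 h and 97.6, 134 and 99.4 CPM at 1 h (-1.49, SE 0.26, edgeR adjusted p = 2.06e-04). PRK, the phosphoribulokinase of carbon fixation, read 862, 619.6 and 737 CPM at 0 h and 213, 307 and 348 CPM at 1 h (-1.35, SE 0.22). The antenna gene LHB1B2, outside that list, fell from 7619, 6084 and 5369 CPM to 1629, 2629 and 1619 CPM (-1.70, SE 0.26), though its reads may be shared with LHB1B1 and the CAB genes. Groups did not overlap for these genes, and the first replicate was the highest of each at 0 h. Without it, 31 of the 39 were lower and the median was -0.75.

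Genes of sugar and energy starvation were mostly lower, with larger changes in single genes. Of 30 tested, 21 were lower, 13 at least 2-fold, and 4 higher, with a median of -0.79. The 21 include DRM2 (AT5G14620, -0.31), a DNA methyltransferase matched by its symbol and not a starvation gene. SEN1 (AT4G35770), a gene of darkness and senescence, read 4186, 3653 and 3688 CPM at 0 h and 603, 1208 and 753 CPM at 1 h (-2.17, SE 0.26, edgeR adjusted p = 5.67e-06). ASN1, the asparagine synthetase induced in the dark, fell from 2753, 2444 and 2088 CPM to 523, 872 and 443 CPM (-1.99, SE 0.27), and SIP2, a raffinose-cleaving enzyme, fell by 1.80. SEN1 alone took 0.380% of counts over the 0 h group and 0.0885% over the 1 h group. Members that rose included GPT2 (6.80), DIN11 (4.88) and MSS1 (STP13), a hexose importer (2.26). At 3 h, SEN1 read 3555, 2382 and 2174 CPM and ASN1 2434, 1371 and 1403 CPM.

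Several genes of the growing cell wall were among those that fell most. EXO, an EXORDIUM protein of brassinosteroid-promoted growth, read 331, 242 and 263 CPM at 0 h and 45.9, 50.8 and 39.2 CPM at 1 h (-2.62, SE 0.27, edgeR adjusted p = 1.36e-06). Of 51 expansins and xyloglucan enzymes, 17 were lower (33.3%) and 13 higher (25.5%, against 25.2% of all genes), with a median of -0.31. Among those named were XTH25 (-2.52), EXLA1 (-2.25) and XTH6 (-2.16), and XTH18 rose by 2.89. Of 17 aquaporins, 8 were lower, 9 were not called and 0 were higher, and those that fell included PIP3 (-1.27), PIP2E (-1.17) and DELTA-TIP (-1.13). Without the first 0 h replicate, 12 aquaporins were lower. Other genes among the 15 lowest were SOB5 (-3.02), the actin-binding protein gene PLIM2a (-2.54), the iron reductase FRO6 (-2.43), the methyl esterase MES16 (-2.32), the sugar transporter STP14 (-2.19) and the wall glycosidase BXL1 (-2.11).

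Of 16 genes known to answer to touch, 4 were higher (25%, against 25.2% of all genes) and 7 lower (43.8%, against 23.0%), with a median of -0.27. TCH3, a calmodulin-like protein, read 394, 367 and 645 CPM at 0 h and 1503, 1682 and 1866 CPM at 1 h (1.84, SE 0.25), whereas XTH25, EXO and PHI-1 fell. Of 31 clock genes, 6 were higher (19.4%) and 11 lower (35.5%). Without replicate 1 at 0 h, or replicate 1 or 2 at 1 h, 3 clock genes were higher. CCA1, a morning gene of the clock, was not called (0.50, SE 0.38, edgeR adjusted p = 0.289), and LCL1 (RVE4) fell by 0.80 and ZTL by 0.72. Of 35 light signalling genes, 5 were higher (14.3%) and 13 lower (37.1%). PIF4, a growth-promoting factor, went down from 84.3, 49.6 and 40.2 CPM to 19.3, 25.1 and 12.3 CPM (-1.61, SE 0.34). Handling and time of day were not tested as parts of these changes, for want of untreated libraries at 1 h.

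Markers of tissues were set beside these lists. Of 24 root markers, 10 were higher (41.7%, against 25.2% of all genes) and 1 lower (4.17%, against 23.0%), with a median of 0.57. Their summed level was 245 to 445 CPM at 0 h and 450 to 565 CPM at 1 h. Without the first 0 h replicate only 3 root markers were higher and the median was 0.29. Of 20 shoot and leaf markers, 2 were higher (10%, against 25.2% of all genes) and 6 lower (30%, against 23.0%). Without the first 0 h replicate, 3 of them were lower. Their sums were 12840 to 17113 CPM at 0 h and 6729 to 10382 CPM at 1 h. These sums came mostly from CAB1 and RBCS1A, which are photosynthesis genes themselves. Of 15 guard cell markers, 0 were higher and 8 lower (53.3%), with overlapping sums of 2065 to 3094 and 1658 to 2203 CPM. The anion channel OZS1 (SLAC1) fell by 1.22. Of 19 phloem, xylem and trichome markers, 1 was higher and 0 lower. No member of these 4 lists was without counts in a whole group. The part of tissue proportions in the changes above was not tested.

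Of 36 nutrition genes, 13 were higher (36.1%) and 3 lower (8.33%), with a median of 0.60. The sulfate transporter SULTR1;2 read 61.7, 107 and 111 CPM at 0 h and 289.8, 241 and 216 CPM at 1 h (1.42, SE 0.18). APR1 of sulfate reduction rose by 1.71. FER1, an iron-storing ferritin, fell by 0.93. Of 38 cell cycle and replication genes, 9 were higher (23.7%, against 25.2% of all genes) and 3 lower (7.89%, against 23.0%). Without replicate 2 at 0 h 18 were higher, but 4 without replicate 1 at 1 h and 5 without replicate 1 at 0 h. ICK1 and LGO, inhibitors of cyclin-dependent kinases, both fell by 1.07. Genes often used as steady references were not all steady: UBQ10 rose from 2049, 2154 and 2208 CPM to 2787, 3125 and 3359.9 CPM (0.53, SE 0.11, edgeR adjusted p = 6.14e-04). ACT2 fell by 0.26 (edgeR adjusted p = 0.0252), a call lost without replicate 1 (0.0664) or 3 (0.0597) at 0 h.

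Of the trihelix loci mutated in the study, 1 was called. AT3G11100 read 69.9, 70.3 and 70.4 CPM at 0 h and 46.5, 52.9 and 47.4 CPM at 1 h (-0.52, SE 0.08, edgeR adjusted p = 7.07e-05), with no overlap of the groups. AT2G33550, the ASR3 locus, read 12.9, 11.2 and 11.8 CPM at 0 h and 11.4, 9.7 and 11.4 CPM at 1 h and was not called (-0.14, SE 0.13, edgeR adjusted p = 0.372). Whether the changes of these loci differ from each other was not tested. Of 28 trihelix factors, 8 were higher (28.6%, against 25.2% of all genes) and 9 lower (32.1%, against 23.0%), with a median of -0.09. Without replicate 3 at 0 h or replicate 3 at 1 h, 5 were higher. GTL1 fell from 149, 132 and 138 CPM to 59.3, 77.9 and 73.5 CPM (-0.99, SE 0.10, edgeR adjusted p = 1.53e-06), and AT2G38250 rose by 1.87. The GT box GGTTAA, a motif that trihelix factors are known to bind, stood before 12.1% of genes at least 2-fold higher, 13.4% of those at least 2-fold lower and 15.1% of all.

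The same contrast in the aitf1-1 asr3-1 double mutant, which shares no library with it, gave calls in the same directions. There 4270 genes (20.3%) were called higher and 4042 (19.2%) lower. Of the wild-type genes called higher, 3805 (71.7% of the wild-type and 89.1% of the mutant list) were called higher in the mutant, and of those called lower, 3628 (75.1% and 89.8%), while 0 were called in opposite directions. Across the 21028 genes, which are not independent replicates, the log2 changes of the genotypes gave a Pearson r of 0.926 and a Spearman rho of 0.885. Among the 1875 genes at least 2-fold higher, the median change was 1.59 in the wild type, which chose them, and 1.40 in the mutant. Examples of the mutant's changes are 7.52 for GAD4, 7.14 for WRKY30, 5.37 for CYP81F2, 1.24 for FLS2, -1.80 for SEN1 and -2.35 for EXO.

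The difference of the 1 h change between genotypes was tested as an interaction, and 0 genes (0%) were called by edgeR's quasi-likelihood test. The lowest adjusted p was 1, with 474 genes (2.25%) at an unadjusted p under 0.05, and DESeq2 called 0 with 510 at that level. PROPEP3, for example, changed by 7.30 in the wild type and 5.76 in the mutant, and PLIM2a by -2.54 and -1.23, differences for which the interaction was not called. An interaction that was not called does not show that the genotypes respond alike.

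**Figure D5:**
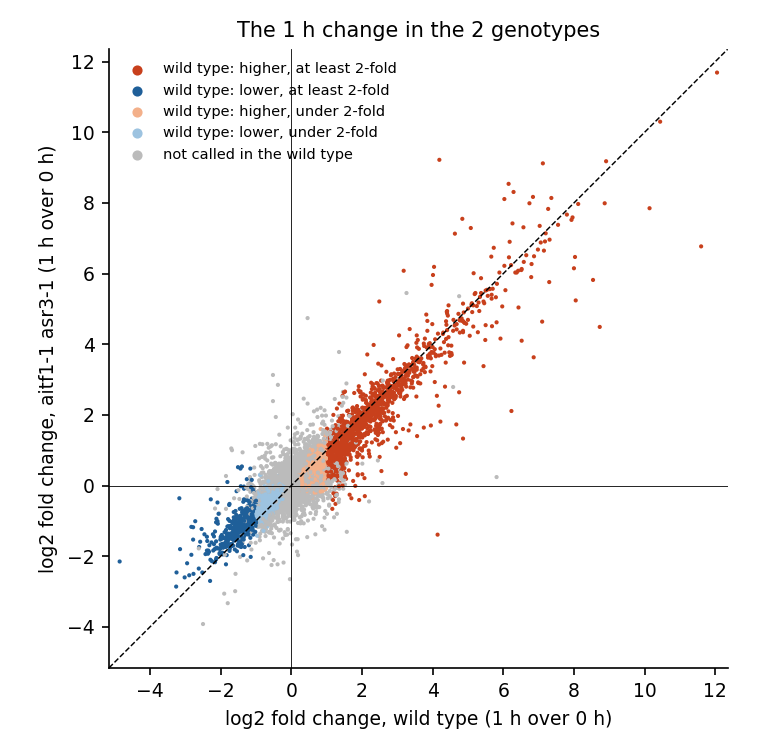
Log2 fold change, 1 h over 0 h, in the wild type (horizontal) and in the aitf1-1 asr3-1 double mutant (vertical) for the 21028 genes tested; the dashed line marks equal change and colours show the wild-type call. Points follow the line, with a Pearson r of 0.926 across genes.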

How the data were processed

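The values used are raw read counts per gene, deposited by the authors for 18 seedling libraries; per the submitters' processing notes, HISAT2 2.1.0, Subread 1.6.5 with featureCounts and the TAIR10 build were used. Which annotation release was counted, whether strand was used and how reads with several matches were treated is not given in the sources used here, so counts of near-identical, overlapping and antisense genes are uncertain. Leaf libraries were not used here.

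From the deposited counts, edgeR 4.0.16 (R 4.3.3) was run with filterByExpr, TMM scaling and the quasi-likelihood test on all 18 libraries in 6 groups (12 residual degrees of freedom), with Benjamini-Hochberg adjustment over 21028 genes and a threshold of 0.05. A further 7371 genes had 0 counts in all seedling libraries. DESeq2 1.42.0, other scalings and filters, a replicate block and single libraries left out were the alternatives. Bounds against a group at 0 use a floor of 3 counts over the group, and intervals cover counting error only. On simulated data with 20826 genes, changes of 0.5, 1 and 2 on the log2 scale were set in 67, 67 and 66 genes. They were recovered in 26.9, 97.0 and 100.0% of these, at 7.45% false calls. A far larger share of genes was called in the real comparison (48.2%), so these rates may not carry over to it.

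The gene lists, 44 in all, and the genes named were chosen with earlier results of these data known. Genes were named by a rule: the 15 highest and 15 lowest changes, the most abundant changed genes, the leading genes of each list and a short set of core genes. Locus identifiers for ambiguous symbols, and the removal of aquaporins wrongly entered as peptides, followed after the counts were seen. Of 1140 list entries, 75 had no unique match and were left out. Entries were matched by symbol or synonym, and some lists still hold genes of another kind. Those named above are KAT2, PAT1, CNGC1, ACO3, DRM2, PEN1 and CEP1, and they were kept in the counts and medians. Gene symbols, starts and exons come from the TAIR10.1 annotation of RefSeq, which held 32830 of the 33318 identifiers, and motifs were searched on both strands.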

Additional observations from a re-analysis of the deposited data

How the results depend on the processing

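No change named above reversed under any alternative run. The 10142 calls became 10315 with DESeq2, 10170 with its size factors in edgeR, 9824 with library totals alone, 9775 with no filter, 10087 with a stricter filter and 8377 with the 6 compared libraries alone. Leaving out single libraries gave 8077 to 9862 calls, with 4180 to 5265 higher, 3897 to 4871 lower, 1570 to 2111 at least 2-fold higher and 527 to 901 at least 2-fold lower, and the interaction kept 0 calls. Among these, the lowest count came without the first 0 h replicate, where 20 of 245 named calls were lost. Same-numbered libraries at 0 and 1 h correlated at -0.221, -0.143 and 0.182 in their deviations from the group means. Other-numbered libraries at these times gave -0.171 to 0.285. Over all groups, the median was 0.0726 for same-numbered and -0.0487 for other-numbered pairs. With 3 libraries in a group, these values cannot decide whether replicate numbers pair the samples. With the replicate number as a block, 10427 genes were called. With the block in the 6 compared libraries alone, a setting chosen after seeing the data that leaves fewer residual degrees of freedom, 6584 genes were called, 3231 of them higher, and 35 of 244 named calls were lost. Genes with few counts at 0 h have folds limited by depth.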
